A study of Mus musculus with 8 samples.

Results

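The perilipin genes Plin1, Plin2, Plin3, Plin4 and Plin5 encode the coat proteins of lipid droplets, and they were taken by symbol from the GENCODE mouse annotation as 5 of its 21951 protein-coding genes. For each gene, every H3K27ac peak over its body or within 20 kb of it was collected. This gave 9 of the 28924 peaks called in proliferating Oli-neu cells and 13 of the 27965 peaks called in differentiating Oli-neu cells. Plin4 and Plin5 lie 1797 bp apart on chromosome 17 and were also read as a single locus, so the 5 genes form 4 loci.

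Lipid droplets store triglycerides and steryl esters in a neutral core under a phospholipid monolayer, and perilipins bind that monolayer and set how easily lipases reach the core. Plin1 and Plin4 are best known from adipocytes, Plin2 and Plin3 are found in most cell types, and Plin5 is best known from oxidative tissues such as heart. Oligodendrocytes make large amounts of lipid for the myelin membrane. Acetylation of lysine 27 on histone H3 (H3K27ac) marks active promoters and enhancers, and it does not by itself measure transcription.

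The series holds 8 samples of Oli-neu, a mouse oligodendrocyte progenitor line of embryonic origin (strain C57BL/6) that carries an activated neu receptor gene, and 2 of them are the H3K27ac ChIP-seq libraries used here. Proliferating cells were kept with bFGF (10 ng/ml) and Pdgf-BB (1 ng/ml) in a medium with N2 supplement, T3 and L-thyroxine. Differentiating cells received medium without growth factors together with 1 μM of the erb inhibitor PD174265, for 1 day by the labels and for longer by the study's methods. The 6 ATAC-seq samples, 3 with siCtr and 3 with siPadi2, were not analysed here. Each state is 1 library of 1 line, with no replicate and no input sample named. Differences between the lists therefore have no replicate check, no test was run between them, and state and library cannot be told apart. Each peak carries a fold enrichment over the caller's local background and a −log10 q. These values are given below as the caller wrote them and as the percentage of peaks of the same list with a lower −log10 q, since the lists hold no read counts and the depth at a given peak is not known. A gene without a peak is a gene where none was called, which is not an absence of acetylation.

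The labelled cell type was checked against marker genes. Sox10, Olig1 and Olig2, transcription factors of the oligodendrocyte lineage, had a promoter peak in both lists, while Nkx2-2, Pdgfra and Cspg4 had none. Of 6 genes of maturing oligodendrocytes, Myrf alone had one, in the differentiating list. Of 4 astrocyte genes, Slc1a3 had a weak one, in the proliferating list (above 1.56% of that list by −log10 q). The 4 neuronal, 4 microglial and 4 adipocyte genes had none in either list. The median fold enrichment over a whole list was 3.33 in proliferating and 3.13 in differentiating cells, and the median −log10 q was 1.93 and 1.89.

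In mm10 coordinates Plin1 (ENSMUSG00000030546.14, 7 transcripts) spans chr7:79720218-79732903. Plin2 (ENSMUSG00000028494.12, 8 transcripts) spans chr4:86648386-86670060. Plin3 (ENSMUSG00000024197.10) spans chr17:56277476-56292873, Plin4 (ENSMUSG00000002831.13) spans chr17:56100591-56109803 and Plin5 (ENSMUSG00000011305.11) spans chr17:56111601-56117596, each with 2 transcripts. All 5 genes are transcribed from the minus strand, so the higher coordinate is the 5′ end.

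The sequences below are from RefSeq (GRCm38.p6, the patch release of the mm10 build used in the lists), read 5′ to 3′ on the minus strand. They lie before gene starts or under peaks described in the following paragraphs, and no peak was called in the Plin2 promoter. RefSeq held 6 promoter windows of 300 bases for the 5 genes, and for Plin2, Plin4 and Plin5 the part before the annotated gene start is shown. For the Plin1, Plin2 and Plin3 peaks the central 300 bases are shown. Capitals mark matches, on either strand, to the direct repeat of AGGTCA with 1 base between the copies that PPAR/RXR receptors bind (up to 2 mismatches), the GC box GGGCGG, the CCAAT box, the TATA-like words TATAAA and TATAAG, the Sox words ACAAAG and ACAATG, and the AP-1 word TGANTCA. None of these matches overlapped another. A match is a description of the letters and not a measured binding site.
Plin5 promoter, chr17:56117597-56117798: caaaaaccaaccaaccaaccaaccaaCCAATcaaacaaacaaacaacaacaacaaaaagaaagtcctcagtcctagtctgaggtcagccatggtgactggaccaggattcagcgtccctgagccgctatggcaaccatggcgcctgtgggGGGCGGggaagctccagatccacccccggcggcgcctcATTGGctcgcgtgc
Plin4 promoter, chr17:56109804-56110032: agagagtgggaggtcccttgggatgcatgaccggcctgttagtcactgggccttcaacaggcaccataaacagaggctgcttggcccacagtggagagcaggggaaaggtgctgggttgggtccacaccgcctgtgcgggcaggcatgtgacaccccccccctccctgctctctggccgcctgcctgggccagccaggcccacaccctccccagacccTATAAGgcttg
Plin2 promoter, chr4:86670061-86670309: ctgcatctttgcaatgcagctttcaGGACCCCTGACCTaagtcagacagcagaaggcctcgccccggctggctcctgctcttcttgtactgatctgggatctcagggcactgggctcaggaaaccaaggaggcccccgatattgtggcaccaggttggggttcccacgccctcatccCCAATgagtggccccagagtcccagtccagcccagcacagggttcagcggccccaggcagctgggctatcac
Plin2 distal peak, chr4:86685953-86686252: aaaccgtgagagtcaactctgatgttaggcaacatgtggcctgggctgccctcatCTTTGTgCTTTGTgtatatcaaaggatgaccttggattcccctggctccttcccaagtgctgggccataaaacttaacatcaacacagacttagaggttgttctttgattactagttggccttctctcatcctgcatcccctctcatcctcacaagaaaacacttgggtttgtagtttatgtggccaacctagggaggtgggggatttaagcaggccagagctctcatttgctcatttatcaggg
Plin1 upstream peak, chr7:79735050-79735349: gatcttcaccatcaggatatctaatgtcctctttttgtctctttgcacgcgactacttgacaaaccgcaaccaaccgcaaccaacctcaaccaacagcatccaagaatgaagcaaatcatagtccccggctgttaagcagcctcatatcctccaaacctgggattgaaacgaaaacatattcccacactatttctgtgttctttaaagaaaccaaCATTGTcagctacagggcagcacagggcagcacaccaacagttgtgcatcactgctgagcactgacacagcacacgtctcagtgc
Plin3 intron peak, chr17:56282852-56283151: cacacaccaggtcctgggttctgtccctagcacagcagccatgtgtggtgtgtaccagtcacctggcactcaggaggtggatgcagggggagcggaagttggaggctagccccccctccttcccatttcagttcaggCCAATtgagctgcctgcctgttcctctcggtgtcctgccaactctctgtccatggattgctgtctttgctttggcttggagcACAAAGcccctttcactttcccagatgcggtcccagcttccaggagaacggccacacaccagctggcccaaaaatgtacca

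In the Plin5 promoter a GC box began 52 bases before the gene start and CCAAT words began 176 and 14 bases before it. Inside the gene, TATAAG lay 21 bases and an AP-1 word 37 bases past the start. The Plin4 promoter had TATAAG 11 bases before its gene start, and Plin2 had CCAAT 72 bases before its own. TATAAG was added after these sequences were seen, so its share below cannot show how unusual these matches are. The Plin2 promoter was the only one of the 5 genes' windows with a match to the PPAR/RXR repeat, with 2 mismatches, 224 bases before the start. Over all 32851 mouse promoter windows of that length, 3.86% held such a repeat, 35.7% a GC box, 37.4% a CCAAT word, 7.43% TATAAG, 13.6% TATAAA, 28.6% a Sox word and 7.81% an AP-1 word. The windows of the 5 genes held more G and C than the median of 52.7% over all windows. The shares were 55.7% for Plin1, 60.7% for Plin2, 59.3% for Plin3, 65.0% for Plin4 and 60.3% and 69.3% for the 2 windows of Plin5. The ratio of observed to expected CG pairs was 0.086 for Plin1, 0.363 for Plin2, 0.344 for Plin3 and 0.221 for Plin4. These ratios lay under the median of 0.384 over all windows, while those of the 2 Plin5 windows, 0.481 and 0.587, lay above it.

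All 5 perilipin genes had at least 1 peak over the body or within 20 kb in the proliferating list, where 62.7% of all protein-coding genes did, and all 5 did in the differentiating list, where the share was also 62.7%. The windows of the 5 genes were 45996 to 61675 bp long, against a median of 57403 bp over all genes. Plin3 had the most, with 5 peaks in proliferating and 6 in differentiating cells. Only 5.83% and 3.33% of all genes had at least as many. Plin1 had 1 and 3 peaks, Plin2 had 1 and 1, Plin4 had 2 and 3, and Plin5 had 1 and 3, counts that 21.3% to 62.7% of genes matched or passed. Neighbouring genes contributed to these counts, as given for each locus below.

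**Figure D1:**
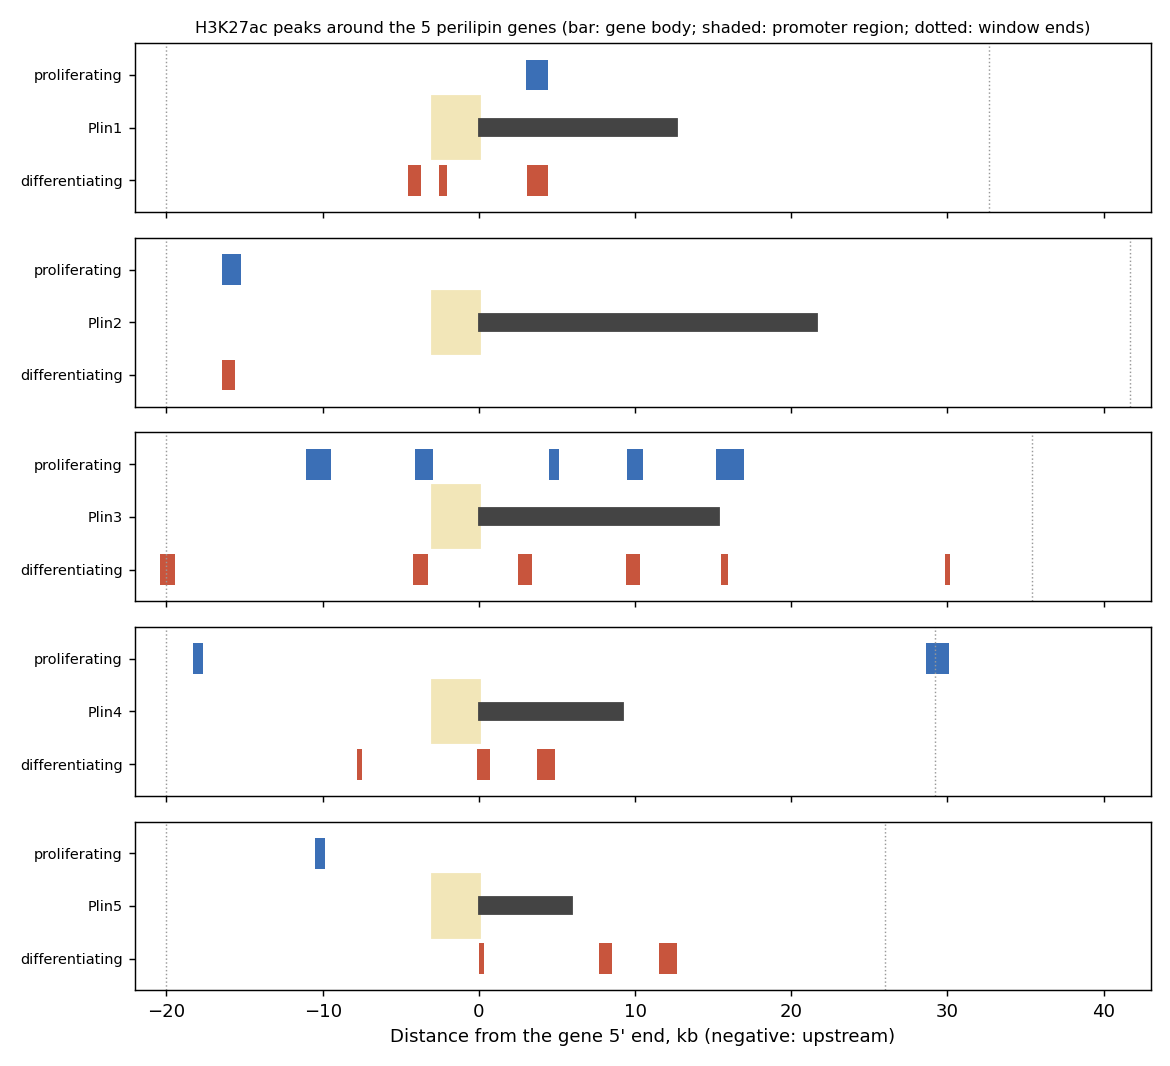
H3K27ac peaks within 20 kb of each perilipin gene, drawn by distance in kb from the gene's 5′ end, with proliferating peaks in blue above and differentiating peaks in red under the gene body (dark bar). The pale box is the promoter region and dotted lines are the window ends. Bodies of Plin1 and Plin3 were overlapped in part by peaks in both lists, those of Plin4 and Plin5 by differentiating peaks alone, and that of Plin2 by none.

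Over the gene body itself, 2 of the 5 genes, Plin1 and Plin3, had a peak in proliferating cells, and 41.9% of all genes did. In differentiating cells Plin1, Plin3, Plin4 and Plin5 had one, 4 of 5, against 43.5% of all genes. Plin2 had none over its body in either list. Plin4 and Plin5 were the perilipin genes with a peak over the body or promoter in the differentiating list alone, which held for 10.7% of all genes, and as neighbours they are not independent of each other.

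The promoter region was taken to run from 3000 bp before the gene's 5′ end to 100 bp past it. Plin3 had a promoter peak in proliferating cells, 1 of 5 genes against 23.7% of all genes. Plin1, Plin4 and Plin5 had one in differentiating cells, 3 of 5 against 27.7%. In either list 4 of 5 did, against 33.8%, and none of the 5 did in both, against 17.6%. Of the 5 genes, 3 were thus marked in the differentiating list alone, where 10.1% of all genes were, and 1 in the proliferating list alone, where 6.13% were. With 5 genes in 4 loci these shares rest on few peaks, and each of the 4 calls depended on the promoter definition or on the threshold. Within 1000 bp on both sides of the 5′ end, Plin4 and Plin5 alone kept a peak, and with −log10 q of at least 5 Plin5 alone did. With at least 0.5 of the peak required to lie in the region, Plin1 alone did. With a limit of 6000 bp, Plin3 had a promoter peak in both lists, and over the starts of all transcripts Plin1 did.

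Plin5, the droplet coat protein that tethers droplets to mitochondria, had the strongest promoter peak of the family, counted from the gene 5′ ends. In differentiating cells a peak of 313 bp at chr17:56117289-56117601 (−log10 q 5.14, above 94.7% of the list) lay directly over the annotated starts of both transcripts. It began 5 bp before the gene's 5′ end and ran 307 bp into the gene. Its fold enrichment of 4.57 was above that of 97.3% of the list. The peak was narrow, against a median width of 755 bp over the list. It held 105 bp of 5′ untranslated exon sequence and 203 bp of intron. Its central 300 bases were 69.3% G and C, more than in 91.6% of differentiating peaks. In proliferating cells no peak was called there, and the nearest was 9874 bp upstream, over Sema6b, a semaphorin gene.

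Plin4, a coat protein of small nascent droplets, had 2 peaks over its body in differentiating cells, both among the weakest of the list. The first, 848 bp at chr17:56109067-56109914, covered the gene's 5′ end and exons 1 to 3, from 111 bp before it to 736 bp past it. Its fold enrichment was 2.72 and its −log10 q was 1.32, above 12.3% of the list. The second, 1139 bp at chr17:56104938-56106076, lay 3727 bp downstream of the 5′ end, over 585 bp of coding sequence of exon 6 of 9 and the intron before it. Its fold enrichment was 2.71 and its −log10 q was 1.26 (q = 0.0543), above 4.50% of the list. The Plin4 coding sequence is known for a long run of near-identical repeats, and 20.6% of all 50-base words in the Plin4 body occur more than once in it. Under this second peak that share was 80.0%, and 99.6% of its bases lay in such a word, while under the first peak it was 0. The study kept uniquely mapped reads, and the part of the repeats in this peak was not tested.

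As a single locus, Plin4 and Plin5 had 3 peaks in differentiating cells, all over gene bodies, and 2 in proliferating cells, both over neighbours. The proliferating peaks were 1483 bp over Hdgfl2, 19385 bp past the 3′ end of Plin4 (fold enrichment 3.63, −log10 q 2.46), and 632 bp over Sema6b (fold enrichment 3.35, −log10 q 1.78). None of these 5 peaks shared a base with a peak of the other list. Over the whole lists, 29.2% of proliferating and 30.1% of differentiating peaks did, so most peaks had no such counterpart. The peak over Hdgfl2 was just inside the 20 kb limit. Just outside it on the other side, peaks of both lists lay over or beside Sema6b, 22096 bp from Plin5 in proliferating and 22210 bp in differentiating cells.

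**Figure D2:**
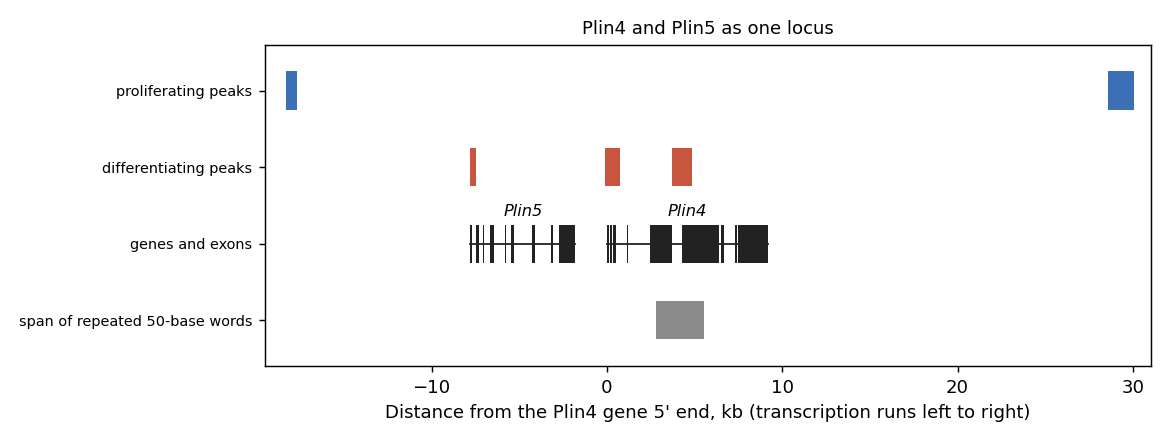
Peaks of both lists, exons of both genes and the span of repeated 50-base words, by distance in kb from the Plin4 5′ end. The 3 differentiating peaks (red) lay over the 5′ ends of Plin5 and Plin4 and over the repeated part of Plin4, and the 2 proliferating peaks (blue) lay outside both genes.

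Plin1, the main droplet coat of adipocytes, had the strongest peak at any of the loci, and it was inside the gene. In proliferating cells a peak of 1413 bp at chr7:79728447-79729859 (fold enrichment 5.18, −log10 q 6.83, above 98.1% of the list) lay 3044 bp downstream of the 5′ end. In differentiating cells a peak of 1390 bp at chr7:79728444-79729833 (fold enrichment 3.68, −log10 q 5.31, above 95.1%) shared 1387 bp with it. The annotation places introns of the full-length transcripts there, together with the last exon of a short transcript, of which the proliferating peak covered 857 bp of 3′ untranslated sequence. Another short transcript starts 6 bp from the proliferating peak and 32 bp from the differentiating one. Counting the starts of all transcripts, Plin1 therefore had a promoter peak in both lists.

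Upstream of Plin1, differentiating cells had 2 further peaks and proliferating cells none. The intergenic peak whose sequence is given above, 483 bp at chr7:79734958-79735440, lay 2055 bp upstream of the 5′ end and made Plin1 count as marked at its promoter. Its fold enrichment was 3.17 and its −log10 q was 2.94, above 79.7% of the list. The other, 892 bp long and 3672 bp upstream, lay within Pex11a, a peroxisome division gene, and was weak (fold enrichment 2.56, −log10 q 1.28, above 5.24% of the list). No peak of either list covered the Plin1 5′ end.

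Plin3, a coat protein that moves from the cytosol to newly formed droplets, had peaks along its body in both lists. The intron peak whose sequence is given above was in both. It spanned 1043 bp at chr17:56282357-56283399 in proliferating cells (fold enrichment 3.51, −log10 q 3.32, above 86.7% of the list) and 906 bp at chr17:56282549-56283454 in differentiating cells (fold enrichment 3.53, −log10 q 4.22, above 91.2%), with 851 bp shared. Annotated repeats made up 44.1% and 37.2% of these 2 peaks.

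Within the Plin3 body, 2 further peaks had no counterpart in the other list. This was the usual case, since 29.2% of all proliferating and 30.1% of all differentiating peaks had one. A proliferating peak of 663 bp covered all 83 bp of exon 2 (fold enrichment 3.20, −log10 q 2.29). A differentiating peak of 911 bp in an intron, with fold enrichment 2.54 and −log10 q 1.17, was among the weakest of its list, above 1.49% of it. The gene has 2 annotated starts, and its 5′ end is the farther one. The inner one, of the transcript that runs to the 3′ end, is at position 56290511 and 151 bp from this weak peak, and RefSeq places the Plin3 promoter window there. No peak of either list covered either start.

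At the upstream edge of Plin3, a peak within Arrdc5, an arrestin-domain gene, was in both lists. In proliferating cells it spanned 1140 bp and lay 2934 bp upstream of the 5′ end (fold enrichment 3.25, −log10 q 2.62, above 75.4% of the list), just inside the promoter region. In differentiating cells it spanned 928 bp and lay 3265 bp upstream (fold enrichment 3.21, −log10 q 2.65, above 74.5%), just outside that region, and the 2 peaks shared 809 bp. The near edges of the 2 peaks differed by 331 bp, and the limit of the promoter region fell between them. With a limit of 6000 bp, Plin3 had a promoter peak in both lists.

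At its 3′ end Plin3 meets Ticam1, an adaptor gene of Toll-like receptor signalling. A proliferating peak of 1838 bp covered the Ticam1 start and 235 bp of the Plin3 3′ untranslated region (fold enrichment 3.79, −log10 q 3.56, above 88.8% of the list). The differentiating peak there was 443 bp long, began beyond the Plin3 3′ end by 129 bp and lay wholly within the proliferating one (fold enrichment 2.83, −log10 q 1.65, above 35.6%). The remaining peaks of the Plin3 window lay in other genes. They were a proliferating peak over the start of Uhrf1, a DNA methylation maintenance gene, and differentiating peaks in Uhrf1 and Fem1a. The Uhrf1 peak in differentiating cells was 19419 bp from Plin3, just inside the limit, and peaks of both lists at the start of Fem1a, 20482 bp away in proliferating and 20718 bp in differentiating cells, were just outside it.

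Plin2, the droplet coat of most non-adipose cells, had no peak over its body or promoter in either list, and its 8 annotated transcripts start between 15255 and 26671 bp from the nearest proliferating peak. That peak, the only one in its window, was intergenic and 15255 bp upstream of the 5′ end, at chr4:86685315-86686520 (1206 bp). Its fold enrichment was 3.26 and its −log10 q was 1.95, above 51.2% of the list. The differentiating peak at chr4:86685692-86686512 (821 bp) lay wholly within it. Its fold enrichment was 2.89 and its −log10 q was 1.28, above 5.24% of the list. The same values were shared by 1059 differentiating peaks. The central 300 bases of the differentiating peak held 2 Sox words 1 base apart, and at least 1 Sox word was found in 33.8% of the centres of all differentiating peaks. Within 5 kb or 10 kb of the body, Plin2 had no peak.

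**Figure D3:**
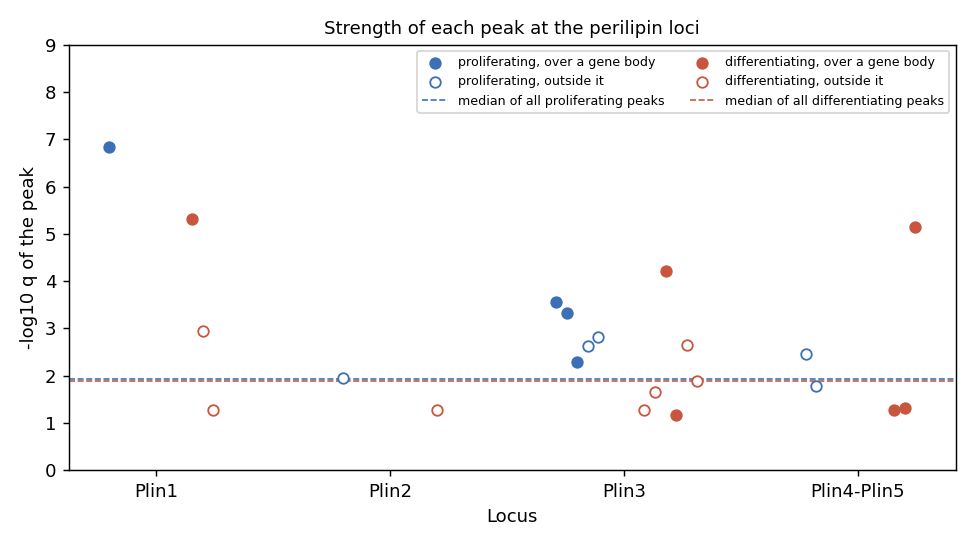
The −log10 q of each peak at the perilipin loci, in blue for proliferating and red for differentiating cells, filled where the peak lies over a perilipin gene body. Dashed lines are the medians of the whole lists, 1.93 and 1.89. The peaks inside Plin1 and over the Plin5 start were the ones above 5.

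Read over all loci, 8 of 9 proliferating peaks and 5 of 13 differentiating peaks were above the median −log10 q of their own list. The median −log10 q was 2.62 and 1.65, and fold enrichment ran from 3.20 to 5.18 in proliferating and from 2.54 to 4.57 in differentiating cells. None of the proliferating peaks had q above 0.05, and 5 of the differentiating peaks did. Of the whole lists, 96.1% of proliferating and 88.5% of differentiating peaks had q of at most 0.05. In all, 1 proliferating peak, inside Plin1, and 2 differentiating peaks, inside Plin1 and over the Plin5 start, had −log10 q of at least 5, which 4.35% and 5.73% of all peaks did.

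Of the 9 proliferating peaks 5 shared bases with a differentiating peak, 55.6%, and of the 13 differentiating peaks 5 did, 38.5%. Over the whole lists these shares were 29.2% and 30.1%. The 5 shared peaks were the one inside Plin1, the distal one of Plin2, and those in the intron, at the 3′ end and upstream of Plin3. Fold enrichment was lower in the differentiating list at 4 of the 5, as was the median of that whole list. By rank within the list, the peaks at Plin1, in the Plin3 intron and upstream of Plin3 were at 74.5% or higher in both. The Plin2 peak was above 51.2% of proliferating but 5.24% of differentiating peaks, and the Plin3 3′ end peak was above 88.8% and 35.6%.

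**Figure D4:**
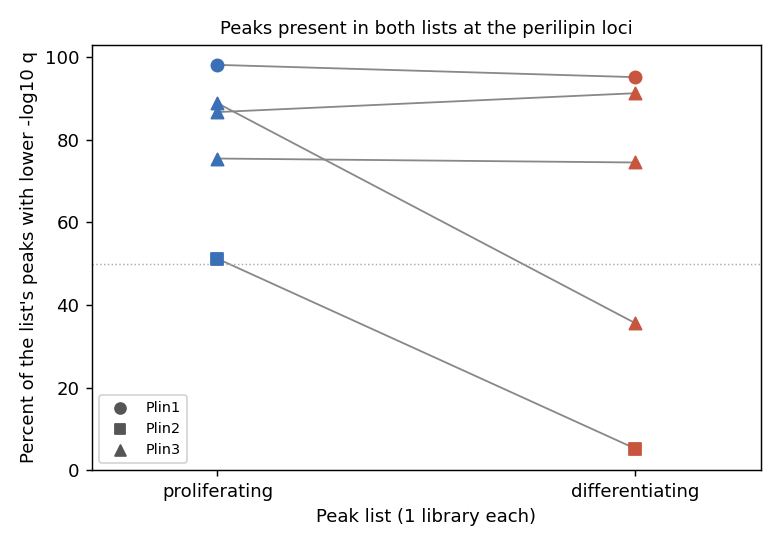
The 5 peaks present in both lists at the perilipin loci, each as the percentage of peaks of its list with a lower −log10 q, joined between proliferating (blue) and differentiating (red) cells. The Plin1 peak and 2 Plin3 peaks had ranks from 74.5% to 98.1% in both, and the Plin2 peak and the Plin3 3′ end peak had lower ranks in the differentiating list.

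The other genes of the lipid-droplet pathway were taken as a list of 46 by role, without the perilipins. A promoter peak was found for 10 of them in proliferating cells, where 23.7% of all genes had one, and for 13 in differentiating cells, where 27.7% did. In either list 16 had one, 34.8% against the 33.8% of all genes given above. Of the 46, 7 had one in both lists, where 17.6% of all genes did. In the differentiating list alone 6 had one, where 10.1% of all genes did, and in the proliferating list alone 3 had one, where 6.13% did.

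Of 11 genes of triglyceride and steryl ester synthesis, 4 had a promoter peak in either list. Dgat2, which makes triglyceride from diacylglycerol, had fold enrichment 6.46 in proliferating and 4.26 in differentiating cells, above 99.1% and 96.6% of each list by −log10 q. Gpat4 and Agpat1, acyltransferases of the early steps, were marked in both lists. Soat2, a cholesterol acyltransferase, had a weak peak in the proliferating list alone (above 2.31%). Of 7 lipolysis genes 3 were marked in either list, 42.9% against the same 33.8%. G0s2, an inhibitor of adipose triglyceride lipase, was marked in both, above 99.4% of each list. Pnpla2, the lipase itself, had a peak in differentiating cells alone (fold enrichment 3.42, above 69.3%), and Pnpla3, a related enzyme, in proliferating cells alone (fold enrichment 4.69, above 97.9%). Within 1000 bp on both sides of the start, Pnpla3 had a peak in both lists.

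Of 13 genes of droplet formation and growth, 3 were marked in either list, 23.1% against 33.8% of all genes. Fitm2, an endoplasmic reticulum protein that promotes droplet formation, had a narrow peak in differentiating cells alone (289 bp, fold enrichment 4.83, above 95.3%), Bscl2, which encodes seipin, had a weak one there (above 3.18%), and Aup1 was marked in both lists. Of 5 genes of fatty acid uptake and activation, 2 were marked in either list, 40% against the same 33.8%. They were the acyl-CoA synthetase genes Acsl3, in both lists, and Acsl4, in the differentiating list alone. Within 1000 bp on both sides of its start, Acsl4 had a peak in both lists. Of 10 nuclear receptors and coregulators, 4 were marked in either list, also 40%. Rxrb was marked in both lists, Ppard and Nr1h3 in the differentiating list alone and Srebf1 in the proliferating list alone. Counting the starts of all transcripts, Nr1h3 was marked in both.

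**Figure D5:**
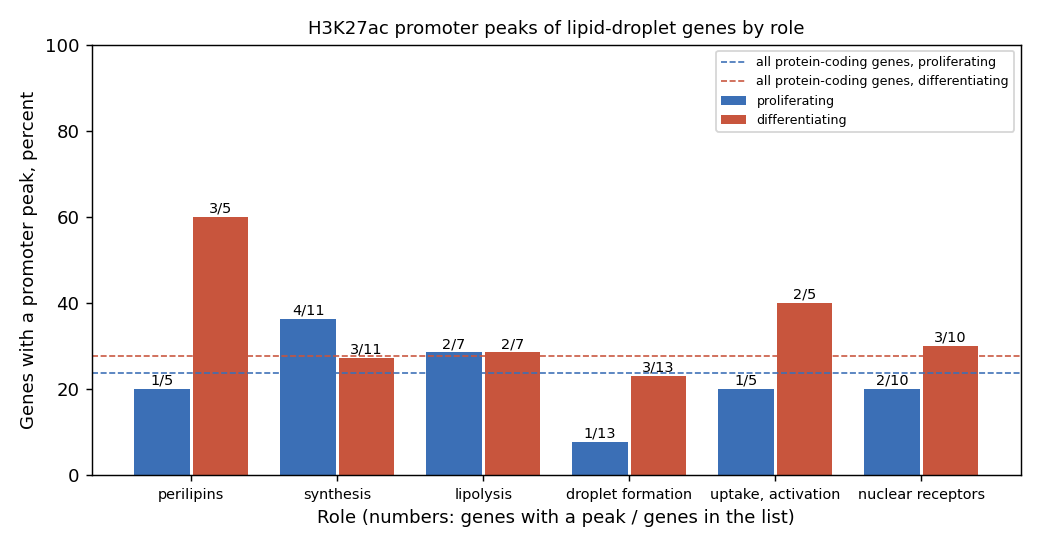
Percentage of genes with a promoter peak in proliferating (blue) and differentiating (red) cells, for the perilipins and the 5 other roles, with the counts above the bars. Dashed lines are the shares of all protein-coding genes, 23.7% and 27.7%.

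For each perilipin promoter peak, the genes marked in the same list alone whose −log10 q rank was nearest were found, over 1 list and with no claim beyond that rank. For Plin5 these were Amz2, Smarca5 and Edc3, for Plin4 they were C1ql1, Alox12b and Elovl4, and for Plin1 they were Slc35e4, Rcn2 and Spdye4a, among 2217 genes. For Plin3 they were Caskin1, Mthfd2 and Tspo2, among 1344. All lay within 0.232 percentage points of the rank of the perilipin peak.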

How the data were processed

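H3K27ac was measured by ChIP-seq in Oli-neu cells, 1 library per state. Per the labels and the study's methods, the authors mapped reads to mm10 with Bowtie2 2.1.0, kept uniquely mapped reads, removed duplicates with SAMtools, called broad peaks with MACS2 2.0.10 and removed blacklisted regions with bedtools. The methods give a q cutoff of 0.05, while the deposited lists reach 0.0995 and 0.0983. Whether duplicate reads were removed before these particular lists were called could not be settled from the sources used here, and duplicates would change fold enrichment and q. The deposited peak lists hold, in a text cell of 3 values, the fold enrichment (a ratio) and the −log10 p and −log10 q. This order was read from the values. They hold no read counts per peak, so no interval or count test could be had. The study's methods give more uniquely mapped reads for the differentiating library than for the proliferating one, and the effect of this on the lists was not tested. Here, starts were made 1-based, and peaks were overlapped with GENCODE M21 genes (Python 3.11.15, pandas 2.3.3, numpy 2.4.6), sharing at least 1 base. Ranks were taken within each list. The overlap rules were tested on simulated peaks. All 32851 RefSeq promoter windows were identical to the genome read here, and no peak passed a chromosome end. Named genes were the 5 perilipins, neighbours within 20 kb with a peak, up to 4 pathway genes per role, marked marker genes and, for each promoter peak, 3 genes of nearest rank. The members and lists were chosen with earlier results of these data known, and TATAAG was added after the sequences were seen. Alternatives were other distances, promoter definitions, overlaps, thresholds and rankings.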

Additional observations from a re-analysis of the deposited data

How the results depend on the processing

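No paired analysis was possible because each ChIP-seq state has 1 library, and the samples whose labels share replicate numbers were not analysed here. Of 97 recomputed counts, 61 were within 1.5 times the value reported and 36 were not. Except where a threshold or narrower region by construction removes peaks, the cause was not tested. Apart from the gene body alone, the share of all genes was not recomputed for these settings. Outside that setting, the shares given above are therefore not a background for the recomputed counts.

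Perilipin genes with a peak in the window fell from 5 in proliferating cells to 3 within 10 kb, 2 within 5 kb and 2 over the body alone. At −log10 q of at least 5 they were 1 in proliferating cells, 3 in differentiating cells and 3 in either. Plin4 was among these 3 only through the peak over the Plin5 start, which lies in its window. The 9 proliferating peaks became 5 within 5 kb, 14 within 50 kb, 4 over bodies and 1 at −log10 q of at least 5. The 13 differentiating peaks became 6 over bodies, 2 at −log10 q of at least 5, 8 with q of at most 0.05 and 6 at or above the median fold enrichment. Shared peaks, 5 in each list, became 1 and 1 at −log10 q of at least 5 and 2 and 2 at or above the median fold enrichment.

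Perilipin promoter peaks in proliferating cells, 1 as reported, were 0 within 1000 bp, 0 with at least 0.5 of the peak inside, 0 at −log10 q of at least 5, 0 at the median fold enrichment and 2 over the starts of all transcripts. In differentiating cells, 3 became 1 with at least 0.5 of the peak inside and 1 at −log10 q of at least 5. In either list, 4 became 2 within 1000 bp, 1 with at least 0.5 of the peak inside, 1 at −log10 q of at least 5 and 2 at the median fold enrichment. Over all transcript starts, where no all-gene share was computed, pathway genes with promoter peaks became 16 in proliferating cells and 25 in either list. At −log10 q of at least 5 they were 3 in proliferating cells, 3 in differentiating cells and 4 in either, and at the median fold enrichment they were 6 in proliferating cells and 10 in either. Lists of equal length changed no count by more than 1.5 times.

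Ranks of the promoter peaks depended on the measure. Ranked by fold enrichment instead of −log10 q, Plin1 was above 54.0% of its list, Plin3 above 41.0%, Plin4 above 8.81% and Plin5 above 97.3%. Ranked among promoter peaks alone, they were above 54.7%, 48.6%, 3.14% and 86.0%. Ranked by width, the order changed, with Plin3 above 79.9%, Plin4 above 56.0%, Plin1 above 31.4% and Plin5 the lowest, above 19.99%. Depth per peak is not known, so a peak called in 1 list alone may have missed the threshold in the other.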
